A study of Mus musculus with 150 samples.

Results

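The double deletion of intervals b and c was studied in 2 clones of mouse embryonic stem cells, bc.del B3 and bc.del D12. Both are cas/129 hybrid cells, which carry 1 svim and 1 cast copy of chromosome 16, so that each copy has its own replication profile. Interval b spans chr16:48396806-48437301 and interval c spans chr16:48581359-48620367 (mm10), and both are removed while interval a, chr16:48308399-48311882, is kept. The clones were chosen by their label and contribute 4 of the 150 samples of the series, an early and a late S-phase library each. The cells were grown in 2i plus LIF, took up BrdU in a pulse, and were sorted by DNA content before the labelled DNA of the early and late fractions was sequenced.

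Replication timing is the order in which parts of a chromosome are copied during S phase, and it is organised in large domains. Early domains tend to be open and rich in active genes, and late ones compact and gene poor. The domain studied here, chr16:48190131-48620367, holds Dppa4 and Dppa2, whose proteins bind DNA in pluripotent cells, and Morc1, whose ATPase silences transposons in germ cells. It is known to replicate early in embryonic stem cells. Intervals a, b and c are stretches of it that the clones of the study lack alone or in combination. The question is what timing the domain keeps when only interval a is left.

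By the RefSeq annotation (GRCm38.p6), interval a overlaps one end of Dppa2 (48310274-48319513). Interval b contains the whole lncRNA gene Gm5485 (48399453-48412416) and one end of Morc1 (48431237-48630905). Interval c lies within the body of Morc1 and contains the lncRNA gene Gm41458 (48600118-48613840). So both deletions cut Morc1, and neither touches Dppa4 or Dppa2. The promoter of Gm5485 is shown because it is lost with interval b, and that of Trat1, a T cell adaptor gene to the right of the domain, because Trat1 gave the largest called gene difference from the comparison clones. Each run covers 300 bases at a promoter listed for the gene, 5′ to 3′ on the minus strand. They lie at chr16:48412367-48412666 and chr16:48772013-48772312. The first spans the right end of Gm5485, where its annotated start lies on that strand. The second lies inside Trat1 (48730774-48810547), away from its right end, so it is not the start of the gene as annotated here. Capitals mark CG, the pair of bases that can be methylated.
Gm5485: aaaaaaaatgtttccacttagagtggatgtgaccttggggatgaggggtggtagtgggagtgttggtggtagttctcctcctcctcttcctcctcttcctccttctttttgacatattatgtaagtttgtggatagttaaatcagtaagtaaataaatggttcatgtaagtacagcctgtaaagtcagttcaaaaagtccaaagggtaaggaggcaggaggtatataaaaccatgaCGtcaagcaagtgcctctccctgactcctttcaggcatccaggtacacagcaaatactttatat
Trat1: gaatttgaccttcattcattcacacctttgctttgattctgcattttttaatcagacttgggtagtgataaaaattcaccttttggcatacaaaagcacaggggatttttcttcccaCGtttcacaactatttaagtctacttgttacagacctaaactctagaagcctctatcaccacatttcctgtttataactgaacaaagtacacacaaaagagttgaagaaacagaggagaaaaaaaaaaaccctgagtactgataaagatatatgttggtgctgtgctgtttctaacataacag
Each holds 1 CG. The median over the 32851 promoters of the RefSeq table was 7, and 94.6% of them hold at least 1.

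The deposited value is a replication timing score at positions 5 kb apart, and a higher score means earlier replication. In both clones the genes listed as early elsewhere on the chromosome (Crebbp, Son, Ifnar1 and Brwd1) scored above 0 on both alleles, for example Brwd1 at 2.69 in B3 and 3.20 in D12 on svim. Those listed as late (Robo1, Robo2, Cadm2, Ncam2 and Lsamp) scored below 0, for example Robo2 at -2.90 and -2.97. The svim column of each clone was blank at 8 of 8 positions of interval b and 8 of 8 of interval c, while the cast column had a value at every one of them. The deletions are thus on the svim copy, and the cast copy of the same cells serves as the uncut allele. No expression was measured, so the labelled cell type could not be checked against marker transcripts.

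Comparison was made with 5 cas/129 clones edited outside intervals a, b and c, since no unedited cas/129 clone is among the samples used here (columns of the score table headed F121.9 belong to none of the listed samples and stayed unused): 30kdel B11 and C2 (deletion of 48665576-48695490), 29kdel D8 (48235963-48264883), 14kdel D11 (48264884-48280115) and 24.5kinv 3 (inversion of 48311882-48336437). Their edits lie in or beside the domain, which limits them as controls. Clones lacking a, b, c, a and b, a and c, or all of a, b and c gave the series of genotypes around the double deletion, and clone 4k.b.c.del G12 lacks b, c and the 4kdel interval (48280115-48284009), which overlaps one end of Dppa4. All are cas/129 clones. Positions in any deletion of the clones compared were left out of all profiles, which left 60 of the 86 positions of the domain.

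The 2 clones differed beyond the domain. Over positions more than 2 Mb from every labelled edit, 46.6% of positions scored above 0 on svim in B3 and 34.8% in D12, against 35.7 to 47.4% in the comparison clones. Their svim profiles correlated there with r = 0.90 (a description across positions), and B3 was closer to 24.5kinv 3 (0.97) and D12 to 29kdel D8 (0.98). The column median of D12, -2.17, was below that of every comparison clone (-1.88 to -0.44). Both clones are therefore given separately throughout. The part of this difference in the results was not tested beyond rescaling or quantile normalizing the columns and leaving clones out in turn.

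With only interval a left, the svim copy of the domain still scored above 0, but lower than in the comparison clones. The mean svim score of the domain was 0.65 in B3 and 1.31 in D12. The comparison clones scored 1.58 (24.5kinv 3), 1.80 (29kdel D8), 1.87 (30kdel B11), 2.30 (14kdel D11) and 2.74 (30kdel C2). Both deleted clones lay below the lowest of these, and the groups did not overlap. The difference of the means was -1.08 ± 0.44 (SE, 2 against 5 clones), with a 95% interval of -2.04 to -0.12. It did not pass the test over the chromosome (limma, Benjamini-Hochberg adjusted p = 0.999), and the exact two-sided permutation test over clones gave p = 0.0476, the smallest that 2 against 5 clones allow (0.111 adjusted over 7 segments).

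On the uncut cast copy of the same cells the domain stayed early. The cast score was 2.64 in B3 and 2.69 in D12, inside the range of the comparison clones, 1.74 to 3.13. The difference from them was 0.13 ± 0.44 (SE, 95% interval -0.85 to 1.10; limma, adjusted p = 0.999).

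**Figure D1:**
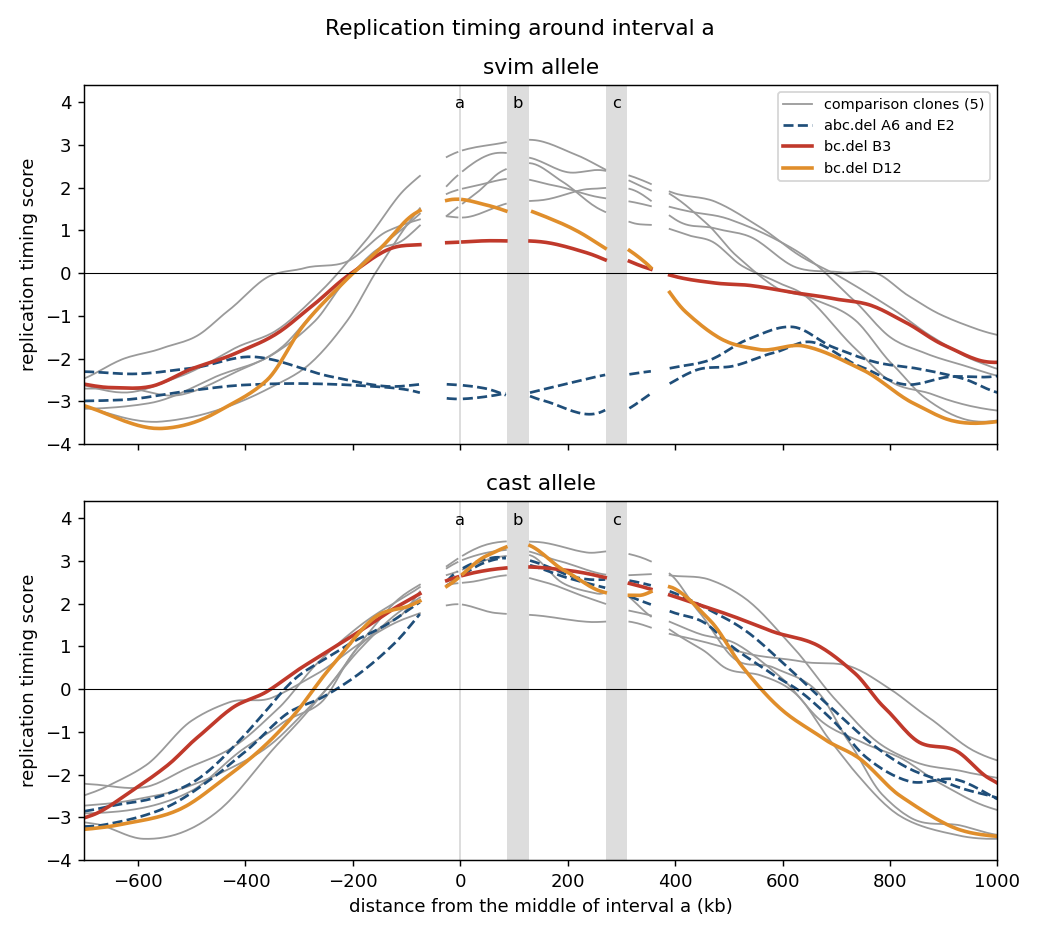
Replication timing score (y axis) against distance from the middle of interval a in kb (x axis) for the svim copy (top) and the cast copy (bottom). Lines are single clones, grey bands are intervals a, b and c, and gaps are positions left out. On svim the bc.del clones lie above 0 around interval a, and the abc.del clones lie below 0 over the domain. The bc.del clones cross 0 at 370 to 380 kb to the right of a, nearer than the comparison clones. These mm10 distances count the deleted b and c. On cast all the clones drawn are above 0 over the domain.

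Taking the cast copy of each clone as its reference narrowed the spread. Within the deleted clones, svim minus cast over the domain was -1.99 in B3 and -1.38 in D12. In the comparison clones it was -0.83, -0.79, -0.47, -0.16 and -0.15. So the svim copy was later than the cast copy in all 7 clones, and both deleted clones lay outside the range of the others. Tested against 0, the difference between the alleles in the bc.del clones was -1.69 ± 0.25 (SE, limma, adjusted p = 0.00110). Without B3 that adjusted p was 0.0615. Tested against the comparison clones it was -1.21 ± 0.29 (SE, 95% interval -1.84 to -0.57), with an adjusted p of 0.187 in limma and an exact permutation p of 0.0476, the smallest possible (0.0833 adjusted over 7 segments). Set against the rest of chromosome 16, the median domain window of B3, -2.09, was matched or passed by 0.78% of 1795 windows of 50 kb more than 2 Mb from any edit. For D12 the median was -1.63 and the share 2.01%. The shares ran from 6.07 to 50.5% in the comparison clones.

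The loss on svim was uneven along the domain and was larger towards the right, on the side of the deleted intervals. In the segment left of interval a (48190131-48308398) the svim score was 0.67 in B3 and 1.43 in D12, and in the comparison clones it ran from 1.09 to 2.31. D12 lay inside that range and B3 below it. At the one position within interval a the scores were 0.72 and 1.72, against 1.30 to 2.85. Between a and b (48311883-48396805) they were 0.75 and 1.60, against 1.44 to 2.97. D12 again lay inside the range. Between b and c (48437302-48581358) they were 0.58 and 1.05, against 1.85 to 2.82, so both clones lay below. In the right flank, the 300 kb beyond interval c, they were -0.18 and -1.14, against 0.52 to 1.52. There both deleted clones were below 0 and every comparison clone above it.

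The svim differences from the comparison clones were thus -0.46 ± 0.45 left of a, -0.78 ± 0.50 at a, -1.07 ± 0.48 between a and b, -1.40 ± 0.42 between b and c, and -1.71 ± 0.44 in the right flank (SE). None passed in limma, with adjusted p = 0.999 for each. The left flank, the 300 kb before the domain, gave -0.13 ± 0.49, with B3 at -0.66 and D12 at -1.01 inside the range of -1.64 to 0.19. On cast the 6 segments differed by -0.0247 to 0.30, and the deleted and comparison clones overlapped in each.

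For svim minus cast the same segments gave -0.44 ± 0.32 left of a, -0.76 ± 0.33 at a, -1.20 ± 0.28 between a and b, -1.61 ± 0.31 between b and c and -1.86 ± 0.29 in the right flank. Left of a the value rested on B3: it was -0.00193 without B3 and -0.88 without D12. In limma the segments between b and c and to the right passed, with adjusted p = 0.0482 and 0.0140, and that between a and b did not (0.146). The call between b and c was lost under 11 of 13 alternatives, with adjusted p from 0.0278 to 0.759 over all of them. The right flank lost its call without B3 (-2.00, adjusted p = 0.163) or without D12 (-1.71, adjusted p = 0.270). In every one of these segments from between a and b onward, both deleted clones lay below all 5 comparison clones.

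The fall from the segment left of a to the right flank, which lies beyond the domain, was compared directly, as a measure chosen after the values were seen. The svim score of the right flank minus that left of a was -0.85 in B3 and -2.57 in D12, against -0.47 ± 0.28 (SD, n = 5, range -0.79 to -0.17) in the comparison clones. The exact permutation test gave p = 0.0476, or 0.143 adjusted over 3 measures. For svim minus cast the values were -0.43 and -1.60, against 0.40 ± 0.59, and the exact p was 0.0952. B3 lay inside the comparison range of -0.59 to 0.85 on that measure. The fall in score from left to right was thus larger in D12 than in B3.

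**Figure D2:**
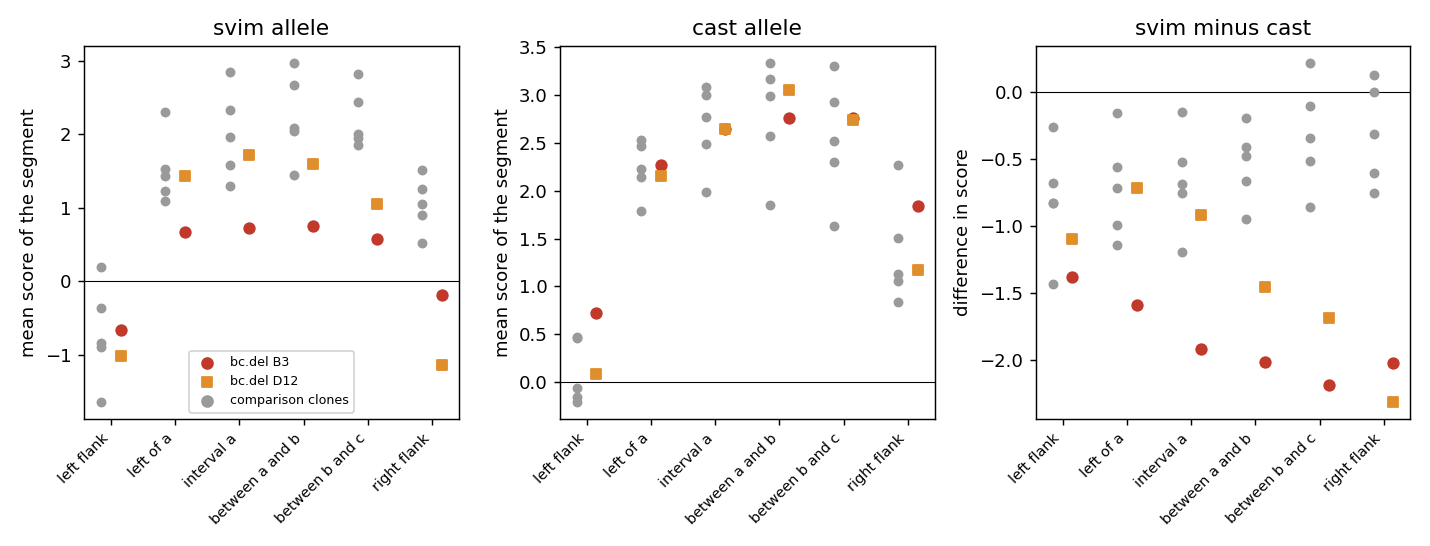
Mean score of each segment (x axis, in map order) on svim and on cast, and svim minus cast (y axes, score units); points are single clones. The svim and allelic differences of the bc.del clones leave the comparison range towards the right, and in the right flank both are below 0 on svim (-0.18 and -1.14).

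Over 50 kb windows, 0 of 1892 passed for svim against the comparison clones in limma (0%), and 10 had an unadjusted p under 0.05, all lower in the bc.del clones. For svim minus cast 5 of 1892 passed (0.264%), all lower, and they lie in the domain and its right flank. They are 48350001-48400000, 48450001-48500000 and the 3 adjoining windows of 48700001-48850000. The largest difference, at 48750001-48800000, was -2.30 ± 0.32 (SE, limma, adjusted p = 0.00965). The count was 2 without B3, 0 without D12 and 3 without each of 24.5kinv 3, 29kdel D8, 30kdel B11 and 30kdel C2. Against 0, with no reference but the cast copy, 89 of 1892 windows passed (4.7%), 66 lower and 23 higher on svim. The lower ones include all 20 windows kept between 47800001 and 48950000. Far from the edits, the windows with the largest svim minus cast difference from the comparison clones were 76600001-76650000 (-1.16), 77000001-77050000 (-1.15) and 76950001-77000000 (-1.12), and none passed (adjusted p from 0.847 to 1.00).

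The places of the highest and lowest svim scores in the domain also differed, as sought outside b, c and the deletions of the comparison clones. In D12 the highest svim score, 1.727, was at 5 kb to the left of interval a, against 1.724 at a. In B3 it was 0.76, at 60 kb to the right of a and nearer to b, against 0.72 at a. The comparison clones had theirs 75 to 270 kb to the right of a, a span that holds the left-out interval b. The lowest svim score in the domain was at 48580000, next to interval c, in both deleted clones (0.31 and 0.58), and at 48195000, the left end, in all 5 comparison clones. A low point at 48580000 was shared by the 4 c.del clones, 4k.b.c.del G12 and ac.del H8. A highest score 10 to 15 kb from a was found in c.del A12, c.del B11, b.del D6 and ac.del H8. Of these, H8 lacks a. Averaged over 50 kb, the svim score fell below 0 at 205 kb (B3) and 200 kb (D12) left of a, within the 160 to 340 kb of the comparison clones. On the right it did so at 380 and 370 kb, against 555 to 770 kb. On the mm10 map the stretch above 0 was 585 kb in B3 and 570 kb in D12, shorter than the 715 to 1110 kb of the comparison clones. In bc.del this stretch and the distances on the right count the deleted b (40.5 kb) and c (39 kb), which that copy lacks. Stretches of comparison clones with a deletion likewise count it. On cast the stretch above 0 was 1120 and 840 kb, against 860 to 1125 kb. These landmarks carry no test.

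The closest comparison for interval a is that with the triple deletion, because the labelled edits of bc.del and abc.del differ by a alone. These are separate clones, and other differences between them cannot be told apart from that of a. The domain was far earlier with a than without it. The svim score of the domain was 0.65 in B3 and 1.30 in D12, and -2.72 in abc.del A6 and -2.90 in abc.del E2 (all deletions left out). The difference was 3.79 ± 0.52 (SE, 2 against 2 clones, 95% interval 2.70 to 4.87; limma over 22 clones, adjusted p = 0.000298). On cast the same clones gave 2.64, 2.69, 2.63 and 2.55, and the difference was 0.0791 ± 0.43 (SE, 95% interval -0.82 to 0.98). The difference in svim minus cast was 3.71 ± 0.46 (SE, limma, adjusted p = 1.94e-05). Repeat libraries of clone A6 were averaged, and they differed by 0.0469 on svim.

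The difference between bc.del and abc.del extended over the whole domain. It was 3.77 ± 0.52 left of a, 3.97 ± 0.58 between a and b and 3.68 ± 0.53 between b and c (SE, limma, adjusted p = 0.000298 for each). In the right flank it was 1.42 ± 0.51 (SE, 95% interval 0.36 to 2.47; adjusted p = 0.998). There the svim scores were -0.18 and -1.14 with a and -1.86 and -2.29 without it. The difference did not pass, and with 2 against 2 clones the lack of overlap says little. In the left flank it was 1.63 ± 0.51 (SE, adjusted p = 0.556). Whether the flanks differed from the domain was not tested.

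Of 1889 windows, 9 passed for svim (0.476%), all higher in bc.del, and they make up every window kept between 48100001 and 48650000. For svim minus cast 7 passed (0.371%), all higher, from 48200001 to 48650000. The largest svim difference, 4.00 ± 0.56 (SE), was in the window that holds interval a, 48300001-48350000. In abc.del interval a is itself deleted, and the svim score beside it was below 0. Left of a it was -2.81 in A6 and -2.62 in E2, and between a and b -2.89 and -2.71. No early stretch could therefore be measured from a in these clones.

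**Figure D3:**
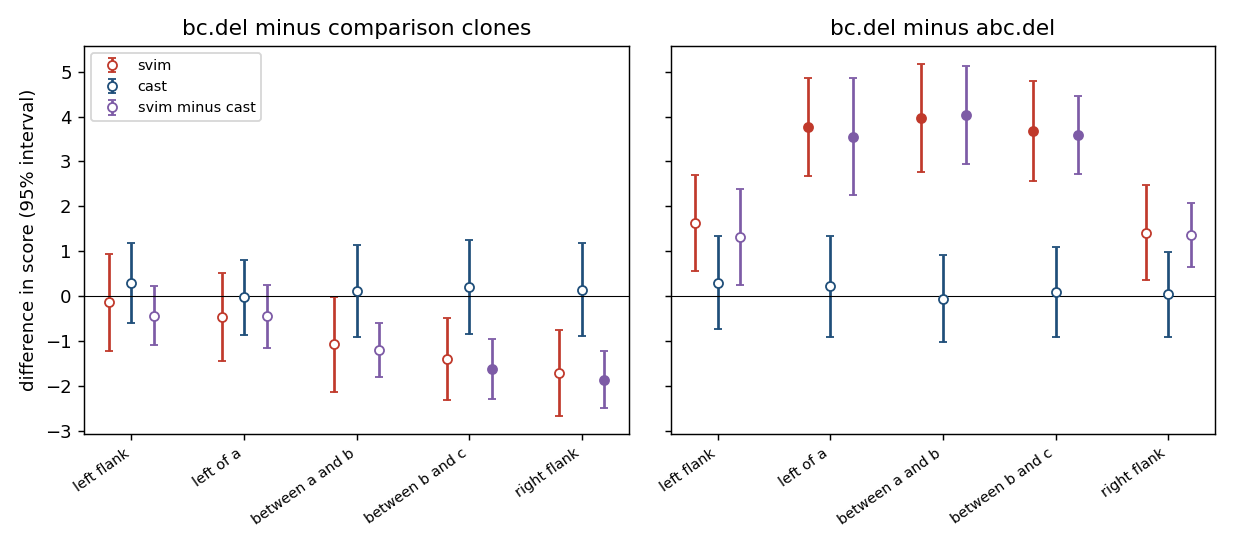
Differences in score (y axis, with 95% intervals) by segment for bc.del minus the comparison clones (left) and bc.del minus abc.del (right). Filled points passed the limma test at an adjusted p of 0.05 and open points did not; the domain segments of svim stand 3.68 to 3.97 above abc.del, and cast lies near 0.

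Set among the other genotypes, the svim score of the domain with a alone was above that of clones which kept b alone or c alone. It overlapped that of a.del and c.del, and lay below that of both b.del clones. It was 0.86 and 2.44 in the a.del clones, which keep b and c, and 1.63 and 1.76 in the b.del clones, which keep a and c. In the c.del clones, which keep a and b, it ran from 0.85 (B11) to 1.72 (C9). In the ac.del clones, which keep b alone, it was -0.0579 (E4) and -1.64 (H8), and in the ab.del clones, which keep c alone, -1.04 and -0.82. Both bc.del clones (0.65 and 1.30) were above all 4 of these. The mean was lower than in b.del by 0.72 and in c.del by 0.42, and the intervals reached 0: -0.72 ± 0.52 (SE, 95% interval -1.81 to 0.37) and -0.42 ± 0.45 (SE, 95% interval -1.36 to 0.53). Neither passed in limma (adjusted p = 1.00 and 0.987), and values of bc.del and c.del overlapped. Both rested on the choice of bc.del clone: without B3 they were -0.40 and -0.0900, and without D12 -1.05 and -0.75. Of 1889 windows 0 passed in limma in either comparison (0%), with 16 and 42 at an unadjusted p under 0.05.

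With the cast copy as reference the gap between the means of bc.del and the single deletions was wider. The svim minus cast difference over the domain was -0.97 ± 0.46 from b.del (SE, 95% interval -1.93 to -0.0132; limma, adjusted p = 0.996) and -1.03 ± 0.40 from c.del (SE, 95% interval -1.86 to -0.20; adjusted p = 0.961). Neither passed, and on cast bc.del was higher than c.del by 0.61 ± 0.37 and than b.del by 0.25 ± 0.43 (SE). Per clone, svim minus cast over the domain ran from -1.54 (B11) to 0.21 (C6) in c.del, which overlapped bc.del (-2.00 and -1.39). Left of a the cast score was 0.41 in c.del C6 and 0.60 in C9, but 2.26 in A12 and 2.14 in B11. In bc.del it was 2.27 and 2.15. The part of this cast spread in the wider gap was not tested. From a.del it was -1.60 ± 0.46 over the domain (SE, limma, adjusted p = 0.383), and it passed between b and c (-2.03 ± 0.42, adjusted p = 0.0388) and in the right flank (-1.60 ± 0.34, adjusted p = 0.0422). Of 1889 windows 3 passed (0.159%), all lower and within 48450001-48800000, and of 679 genes 2 passed (0.295%), Morc1 with -2.00 ± 0.42 and Trat1 with -1.79 ± 0.38 (SE, adjusted p = 0.0365 for each). On svim alone the domain difference from a.del was -0.67 ± 0.52 (SE, adjusted p = 0.621), and on cast bc.del was higher by 0.92 ± 0.43 (SE, 95% interval 0.0185 to 1.82; adjusted p = 0.453).

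The right flank set b.del and c.del apart. The svim score there was 0.48 and 0.35 in the b.del clones and -1.03, -1.02, -0.90 and -0.0472 in the c.del clones. The bc.del clones, at -0.18 and -1.14, lay within the span of the c.del values apart from D12, which was lowest. Their difference from c.del was 0.0917 ± 0.44 (SE, 95% interval -0.82 to 1.01), and from b.del it was -1.07 ± 0.51 (SE, 95% interval -2.13 to -0.0170; limma, adjusted p = 1.00). The sign of the first turned when columns were rescaled (-0.21). The place where svim fell below 0 to the right of a, at 370 to 380 kb in bc.del, was 255 to 430 kb in c.del and 520 to 555 kb in b.del. These are mm10 distances and count any deleted interval that they cross. The departure of the domain score from the sum of the single deletions was -0.0540 ± 0.63 (SE, 95% interval -1.37 to 1.26; limma, adjusted p = 0.999) on svim, 0.73 ± 0.52 on the uncut cast copy (SE, 95% interval -0.35 to 1.82) and -0.79 ± 0.56 for svim minus cast (SE, 95% interval -1.94 to 0.37). None of the 3 passed in limma.

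Clones that kept a single other interval were compared next. Relative to ab.del, in which c alone is kept, bc.del was earlier left of a by 3.25 ± 0.52 (SE, limma, adjusted p = 0.00286), and 4 of 1889 windows passed (0.212%), all higher and covering 48050001-48250000. Over the whole domain the difference was 1.91 ± 0.52 (SE, adjusted p = 0.333), and in the right flank 0.17 ± 0.51. Relative to ac.del, in which b alone is kept, it was 2.18 ± 0.52 left of a (SE, adjusted p = 0.223) and 1.82 ± 0.52 over the domain (SE, adjusted p = 0.726). The cast copy differed in the same direction, by 0.67 ± 0.43, and svim minus cast gave 1.15 ± 0.46 over the domain (SE, limma, adjusted p = 0.999). The ac.del clones lay farther apart than the bc.del clones. Removing the 4kdel interval as well, in the single clone G12, left a domain score of 0.13 on svim and 2.19 on cast. Its svim minus cast value over the domain, -2.06, was slightly below that of B3 (-2.00) and further below that of D12 (-1.39). Between b and c it was -2.78, against -2.19 and -1.69, and in the right flank -3.21, against -2.02 and -2.31. Left of a (-1.04) and between a and b (-1.71) it lay between the 2 bc.del clones, and in the left flank (-0.38) above both. With 1 clone, no test of these differences is given.

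**Figure D4:**
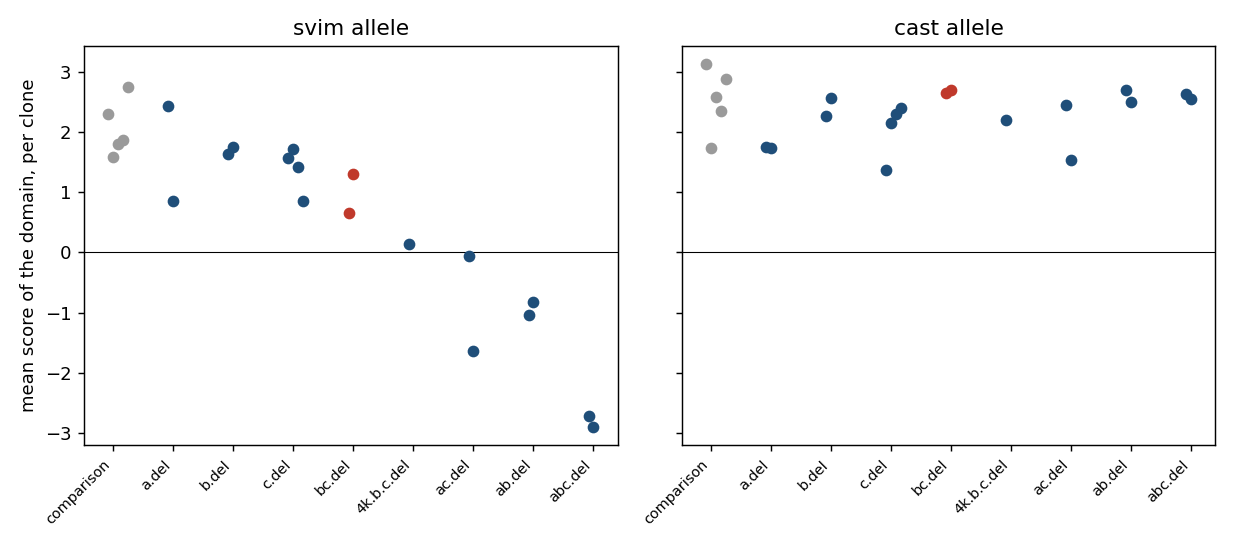
Mean score of the domain (y axis) for each clone, by genotype (x axis), on svim (left) and cast (right), with all deletions left out. Each point is a clone and repeat libraries are averaged; on svim the bc.del clones (0.65 and 1.30) are above 0, above the ac.del, ab.del and abc.del clones, and on cast they are at 2.64 and 2.69.

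The genes of the domain kept scores above 0 on the cut allele. Dppa4, next to interval a, scored 0.71 in B3 and 1.71 in D12 on svim, against 1.32 to 2.75 in the comparison clones. D12 lay inside that range. Dppa2, which overlaps interval a, scored 0.73 and 1.72, against 1.30 to 2.87. For Morc1, over the part of its body not deleted, the scores were 0.55 and 1.02, against 1.86 to 2.77, and both clones lay below. For svim minus cast Morc1 differed by -1.61 ± 0.30 (SE, limma over 679 genes, adjusted p = 0.0281), while Dppa4 (-0.60 ± 0.35, adjusted p = 0.974) and Dppa2 (-0.80 ± 0.32, adjusted p = 0.905) did not pass. Both of these rested on B3: without it Dppa4 gave -0.0423 and Dppa2 -0.33, and without D12 they gave -1.15 and -1.28. The call on Morc1 was lost under 6 of 12 alternatives, among them leaving out either bc.del clone.

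Against abc.del all 3 genes of the domain were earlier on svim. In abc.del A6 and E2, Dppa4 scored -2.94 and -2.60, Dppa2 -2.94 and -2.63, and Morc1 -2.56 and -3.15. bc.del exceeded abc.del by 3.98 ± 0.55 at Dppa4, by 4.01 ± 0.56 at Dppa2 and by 3.64 ± 0.53 at Morc1 (SE, limma, adjusted p = 0.000148, 0.000148 and 0.000188). They were the only genes of 679 to pass (0.442%). The median difference over all genes tested was -0.15. Relative to ab.del, Dppa4 was earlier by 2.96 ± 0.55 and Dppa2 by 2.66 ± 0.56 (SE, limma, adjusted p = 0.0167 and 0.0342), in a comparison where 3 of 679 genes passed (0.442%). Morc1 gave 0.98 ± 0.53 (SE, adjusted p = 0.955).

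To the right of the domain lie Trat1, an adaptor of the T cell receptor, and the resistin-like genes Retnlb, Retnla and Retnlg, which encode secreted proteins. Trat1 (48730774-48810547) scored -0.21 in B3 and -1.31 in D12 on svim, against 0.73 to 1.70 in the comparison clones. On cast it scored 1.91 and 1.64, against 0.82 to 2.55. The allelic difference was thus -2.12 and -2.95, against -0.85 to 0.11. Its difference between the groups was -2.28 ± 0.32 (SE, limma, adjusted p = 0.00527). Retnlb followed with -2.03 ± 0.30 (SE, adjusted p = 0.00527) and Retnla with -1.73 ± 0.29 (SE, adjusted p = 0.0132). Retnlg, the farthest of them, gave -1.44 ± 0.30 and just missed the threshold (SE, adjusted p = 0.0534). On svim alone each of the 4 genes was below 0 in both bc.del clones. The comparison clones were above 0 at Trat1, Retnlb and Retnla, while 2 of them (14kdel D11 at -0.14 and 29kdel D8 at -0.0707) were below 0 at Retnlg. Without D12 the adjusted p was 0.144 for Trat1 and Retnlb and 0.247 for Retnla, and without B3 that of Retnla was 0.103.

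Together with Morc1, these 3 were the 4 of 679 genes that passed for svim minus cast (0.589%), all lower in bc.del. For svim alone 0 of 679 passed in limma (0%), with 5 at an unadjusted p under 0.05. The list of genes to the right had 10 that could be measured; 10 gave a svim minus cast difference below 0, with a median of -1.06, and 3 passed. The median over all genes tested was 0.11. Farther right none passed: Dzip3, a ubiquitin ligase gene, gave -1.05, Cip2a, an inhibitor of the phosphatase PP2A, -1.07, the myosin gene Myh15 -0.61, and Bbx -0.13. To the left, the 6 measured genes ran from -0.0533 to 0.60 with a median of 0.0618, and 0 passed in limma, with Plcxd2 alone under an unadjusted p of 0.05. The early genes Crebbp, Son, Ifnar1 and Brwd1 ran from 0.19 to 0.47 and the 5 late ones from -0.37 to 0.19. Against abc.del, 0 of the 10 right-flank genes passed on svim, where Trat1 gave 1.38 ± 0.53 (SE, limma, adjusted p = 0.997), alone of the 10 under an unadjusted p of 0.05. Over the right flank svim minus cast averaged -2.17 in bc.del, -2.21 in c.del, -2.40 in ac.del and -1.97 in ab.del. It averaged -1.06 in b.del and -0.57 in a.del. The low allelic value on this side was thus not particular to bc.del, and bc.del differed from c.del there by 0.0463 ± 0.30 (SE).

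**Figure D5:**
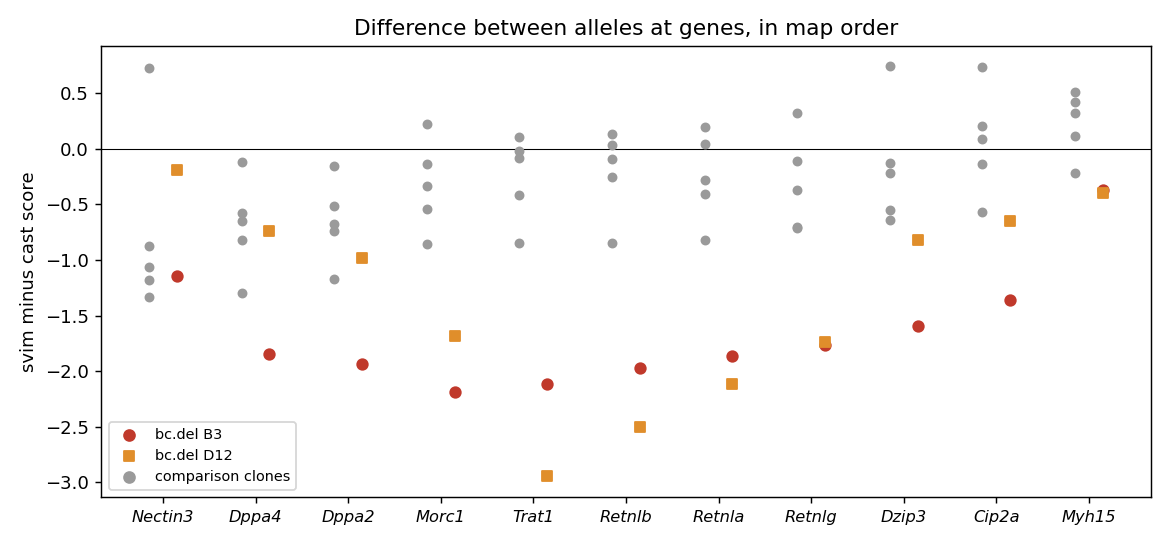
Svim minus cast score (y axis) at genes in map order (x axis), per clone. The bc.del clones lie below all comparison clones from Morc1 to Retnlg, with the lowest values at Trat1 (-2.12 and -2.95), and D12 is inside the comparison range at Dppa4 and Dppa2.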

How the data were processed

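Each clone gave an early and a late S-phase library, which the authors combined into the deposited replication timing score. Per the submitters' processing notes Bowtie2, SAMtools and bedtools were used with mm10; how the score was logged, smoothed or scaled is not given in the sources. Every column used had an interquartile range of 4.598. Read depth is unknown, so the spread between clones sets the precision. The limma p-values weigh a difference against that spread, which limma moderates across windows or genes. In the comparison group it includes differences between the edits.

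Of 129 value columns, 50 were used; 6, headed F121.9 (4 nesc and 2 NPC columns), belong to no sample of the list and were left aside. Differences are therefore from clones edited elsewhere, not from those columns. Repeat libraries of a clone were averaged. Scores were averaged over the domain, its segments, windows of 50 kb with at least 50% of positions left, and gene bodies with 2.5 kb on either side. Differences were fitted with limma 3.58.1 (lmFit, eBayes) under R 4.3.3 as two-sided tests at 0.05, and p-values were adjusted by Benjamini-Hochberg across windows, domain and segments, or across 679 genes. Contrasts with bc.del and the comparison clones used these 7 clones, and all others used 22. The fits were run on simulated data in which each window was drawn independently, unlike neighbouring windows of a real profile. Against the comparison clones, a svim shift of 1 passed in 10.4% of the changed windows and a shift of 2 in 82.1%. For svim minus cast the shares were 65.7% and 98.5%. A svim difference near 1 would thus often be missed.

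The clones, segments, gene lists and tests were chosen with earlier results of these data known. The text names the genes of the lists (domain, flanks, early and late elsewhere), every segment, where changed windows at the domain begin and end, and 3 windows over 2 Mb from any edit whose allelic difference was largest. Guca1c, Hhla2 and Zbed2 of the lists were not found in the gene table. Promoters of Dppa4, Dppa2, Morc1 and Retnlb were not used here. One gene of the list of early genes elsewhere is not reported here.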

Additional observations from a re-analysis of the deposited data

Results flagged for a closer look

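One clone lay far from the others of its group. In the right flank the svim score of c.del C6 was -0.0472, and the next of the 4 c.del clones was at -0.90. The gap was 0.866 of the whole range, above the limit of Dixon's test at 95% for 4 clones. Of 39 groups of values examined in this way 1 was past its limit, and chance gives about 1 in 20. Its part in the comparison of bc.del with c.del was not tested beyond leaving the clone out.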

How the results depend on the processing

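The 4 domain differences of bc.del from abc.del, b.del and c.del (svim, and svim minus cast for abc.del) kept direction and side of the threshold under every alternative run, as did the svim and svim minus cast differences from the comparison clones. The size of those from b.del (-1.05 to -0.397) and c.del (-0.761 to -0.0900) moved by over 1.5 times. For abc.del the svim difference ran from 3.46 to 4.11 with adjusted p from 0.000105 to 0.0236. The number of windows passing for svim minus cast against the comparison clones, 5, was 3 with quantile normalization, 3 with 25 kb beside deletions left out, 3 with a trended robust variance, and 0 to 5 when clones were left out in turn. The number for svim against abc.del, 9, was 4 with 25 kb beside deletions left out, which tests fewer windows. The cast difference from the comparison clones turned to -0.0713 without 24.5kinv 3 (range -0.0713 to 0.276 over left-out clones) and rose to 0.592 with quantile normalization. The svim difference from c.del in the right flank turned to -0.214 with rescaled columns and -0.201 with quantile normalization, and ran from -0.388 to 0.571 with clones left out, below 0 without bc.del B3 or c.del A12. Other causes were not tested. When 1 bc.del clone is left out, the lone clone is assumed to vary like the other groups. Windows of 25 kb were counted as their length in units of 50 kb. No paired analysis was possible because the bc.del clones and the clones compared with them share no numbered pairs: a number marks a repeat library of a clone, and the alleles of a clone are already paired in svim minus cast.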
